A study of Mus musculus with 6 samples.

Results

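The genes described here encode the proteins of the cytosolic ribosome. They were taken by name from the array's annotation as every gene with a row of its own (a row paired with 1 gene symbol only) whose symbol is Rpl, Rps or Rplp with a number, together with Rpsa, leaving out pseudogenes and the Rps6k kinases. The rule found 59 of the 19938 genes on the array, 37 of the large and 22 of the small ribosomal subunit, and used no measured value. The study hybridised total RNA of splenic CD8+ T cells (CD8-TC) to 6 Affymetrix mouse gene ST 1.0 arrays, 3 of Runx3-/- and 3 of WT cells, to find genes that respond to loss of the transcription factor Runx3. Per the labels all mice were male, of the ICR strain and 6 weeks old. All cells were stimulated with anti-CD3 and anti-CD28 for 2 days and grown for 4 days with human IL-2 at 100 units per ml, so there is no resting or IL-2-free group here. The Runx3-/- cells were in addition sorted before culture to take out CD11c+ dendritic cells and after it to take out CD4+CD8- cells, a step that goes with genotype. The arrays are called KO1 to KO3 and WT1 to WT3, and the values are the deposited log2 signals.

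A ribosome is built from ribosomal RNA and a large set of small basic proteins, nearly all of them in a single copy per particle. The subunits are assembled in the nucleolus, and the proteins are made in matched amounts. Their mRNAs open with a run of pyrimidines (the 5′ terminal oligopyrimidine, or TOP, motif), through which mTOR signalling sets how well they are translated, and Myc raises transcription of many of them. T cells enlarge and make many ribosomes after activation, and IL-2 sustains that growth.

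RefSeq promoter windows (build GRCm38.p6, 250 bases before to 50 after a transcription start) were at hand for 47 of the 59 genes, as 56 windows. The bases around each listed start were searched for a run of pyrimidines like that of the TOP motif. The run searched was a C followed by at least 5 pyrimidines, with its C within 20 bases of the listed start. It was found in 55.4% of the family's windows and in 30.8% of all 32851 windows, and a run of 8 or more in 37.5% and 13.5%. The stretches below are examples that hold a run, and the run of Rps27l ends before the listed start. In these stretches, 15 bases before and 15 from the start on, the qualifying run nearest to the start is in capitals:
Rpl14, chr9:120571502-120571531, plus strand: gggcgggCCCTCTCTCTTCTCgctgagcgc
Rps6, chr4:86857353-86857382, minus strand: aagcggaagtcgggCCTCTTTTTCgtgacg
Rplp2, chr7:141447636-141447665, plus strand: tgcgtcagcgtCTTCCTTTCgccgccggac
Rps15a, chr7:118116133-118116162, minus strand: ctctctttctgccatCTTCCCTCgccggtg
Rps27l, first listed start, chr9:66946071-66946100, plus strand: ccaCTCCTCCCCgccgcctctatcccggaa

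The windows were also searched on both strands for the RUNX motif in 4 forms (TGTGGT, the form TGTGGC, the form TGCGGT and the form TGCGGC) and for the ETS core CCGGAA, since Runx3 binds the first and often sits beside ETS factors. A RUNX motif was present in 24 of the family's 56 windows, or 42.9%, and in 45.2% of all windows. The ETS core was present in 44.6% of the family's windows and in 14.9% of all windows. A match is a description of the letters and not a binding site. Of the 6 genes with the most negative differences, 5 have a window (Rpl36 is named only). The 100 bases before their first listed start are shown, with RUNX and ETS matches in capitals:
Rps27l, chr9:66945986-66946085, plus strand: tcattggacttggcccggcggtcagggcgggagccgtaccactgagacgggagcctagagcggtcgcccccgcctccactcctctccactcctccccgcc
Rps19, chr7:24884492-24884591, plus strand: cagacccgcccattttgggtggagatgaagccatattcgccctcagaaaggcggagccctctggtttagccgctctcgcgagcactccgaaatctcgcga
Rpl27, chr11:101442145-101442244, plus strand: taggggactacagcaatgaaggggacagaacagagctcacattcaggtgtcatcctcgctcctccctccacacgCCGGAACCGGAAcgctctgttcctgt
Rps28, chr17:33824563-33824662, minus strand: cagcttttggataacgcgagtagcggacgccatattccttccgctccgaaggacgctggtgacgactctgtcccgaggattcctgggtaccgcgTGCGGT
Rps21, chr2:180257279-180257378, plus strand: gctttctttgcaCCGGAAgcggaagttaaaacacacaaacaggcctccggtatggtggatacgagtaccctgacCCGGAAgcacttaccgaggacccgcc
Rps27l and Rps19 hold no match in these bases. The windows of the 2 other listed starts of Rps19 hold a RUNX match. Rpl27 holds CCGGAA in 2 adjoining copies, Rps28 has TGCGGT directly before its listed start, and Rps21 has 2 separate CCGGAA copies.

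The arrays also differed within each genotype. The first principal component (49.6% of the variance) had scores of −0.8, −42.4 and −17 for KO1 to KO3 and 12.6, 40.3 and 7.3 for WT1 to WT3, so that it separated the genotypes, with KO2 and WT2 far out at its ends. The mean deviation of 28 S phase genes from their own means was −1.33 on KO2 and lay between −0.374 and 0.671 on the other 5 arrays. WT1, labelled male, read 10.64 for Xist, the X-inactivation RNA, against 3.31 to 3.40 on the other arrays. Runx3 did not separate the genotypes, with 8.91, 9.11 and 9.27 on the KO-labelled arrays and 8.77, 8.26 and 9.16 on the WT arrays (difference 0.37, SE 0.24, adjusted p = 0.521, limma). Which part of the gene the mutant allele disrupts is not stated in the labels or methods, so the row does not check the labels, and the mutant arrays are called KO-labelled. Of the CD8 T cell markers, 4 of 6 had a row of their own and were tested, with a median difference of 0.02. Of the CD4 T cell markers, 4 of 5 were tested. The study's threshold is a 1.5-fold change and p of 0.05 before adjustment. It called 3 of these 4 as higher in the KO-labelled cells, beside 3.97% of all tested genes. Of the 3, Izumo1r had an adjusted p of 0.0167 (limma). The remaining gene was lower, at −0.32. The KO-labelled arrays lay above all WT arrays in 2 of the 4, beside 11.6% of all tested genes. The mean deviation of these 4 was 0.358 to 0.637 on KO1 to KO3 and −0.701 to −0.361 on WT1 to WT3, and their part in the results below was not tested. B cell, dendritic cell and natural killer cell lists had 2 tested genes each, and the erythroid list none. The B cell gene Cd79b (difference −0.93, SE 0.22) and the natural killer gene Klrb1c (−1.56, SE 0.39) were lower past the study's threshold with no overlap, while Ighm was at 0.00 and Klre1 at −0.23. The antigen presentation genes Cd74 and H2-Eb1 had differences of 0.80 (SE 0.46) and 0.39 (SE 0.19). The part of these markers was not tested either. In RNA from a whole culture, fewer cells of a type and less RNA per cell cannot be told apart.

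The ribosomal protein genes stood slightly lower in the KO-labelled cells, nearly all in the same direction and none past the adjusted threshold. A gene was tested if its highest value reached the median of the whole table, 4.26. Of the 59 genes 56 were tested, and Rpl10l, Rpl3l and Rpl39l were dim on all 6 arrays. The median log2 difference (KO-labelled minus WT) of the 56 was −0.16, a ratio of 0.895, with quartiles of −0.26 and −0.08. The median over all 10021 tested genes was −0.01, with quartiles of −0.22 and 0.18. The difference was below 0 for 51 of the 56, against 52.0% of all tested genes. None of the 56 passed an adjusted p of 0.05 (limma, Benjamini-Hochberg over all tested genes), which 0.629% of all tested genes passed, and the smallest adjusted p in the family was 0.339. At an unadjusted p of 0.05, 1 of the 56 was lower, a share of all tested genes of 7.14%, and none was higher (6.96%). The study's threshold called 1 of the 56 as lower (4.33% of all tested genes) and none as higher (3.97%).

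All 3 KO-labelled arrays lay below all 3 WT arrays for 18 of the 56 genes, where 10.9% of all tested genes had that order. The opposite order, found in 11.6% of all tested genes, was seen in none of the 56. The count of 18 depended on the arrays that stand apart. It was 38 without WT2 and 32 without KO2, when the share over all tested genes became 16.6% and 14.0%. Without both it was 50, beside 21.9% of all tested genes.

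**Figure D1:**
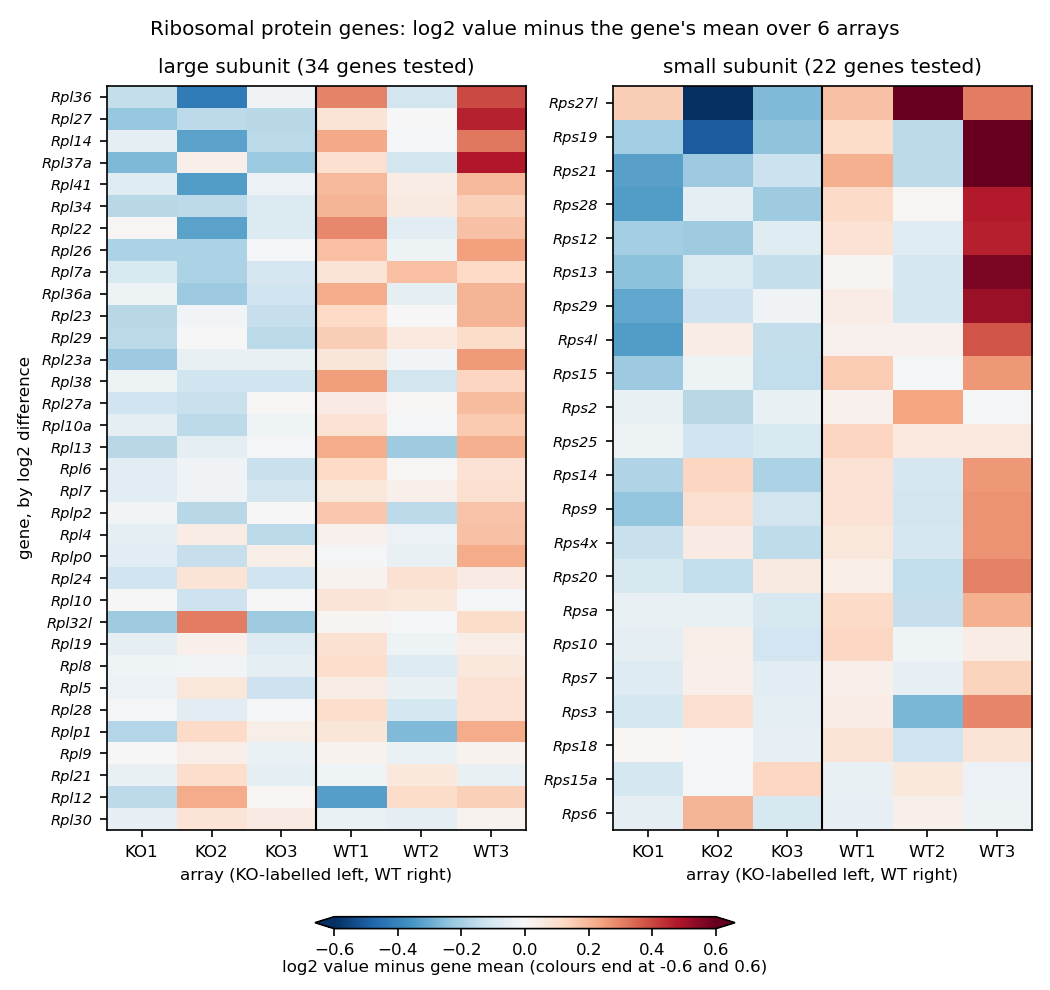
Log2 value of each of the 56 tested ribosomal protein genes minus its own mean over the 6 arrays, in colour, with KO1 to KO3 left of the line and WT1 to WT3 right of it; the large subunit is the left panel and the small subunit the right panel. Blue (below the mean) fills most of the KO-labelled columns, WT1 and WT3 are mostly red, and WT2 is mixed.

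The family read highest on WT1 and WT3. Of the 56 genes, 3 were above their own mean on KO1, 19 on KO2 and 8 on KO3, against 50 on WT1, 20 on WT2 and 51 on WT3. WT3 was the highest array for 30 of the 56, or 53.6%, while it was the highest for 10.8% of all tested genes. The mean deviation of the family was −0.116, −0.0811 and −0.0841 on KO1 to KO3 and 0.0907, −0.0226 and 0.213 on WT1 to WT3. The 3 KO-labelled arrays were thus close together, and WT2 was nearer to them than the other WT arrays were. The median difference of the family was −0.11 without WT3, −0.23 without WT2 and −0.15 without WT1, beside −0.03, −0.01 and 0.00 over all tested genes.

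**Figure D2:**
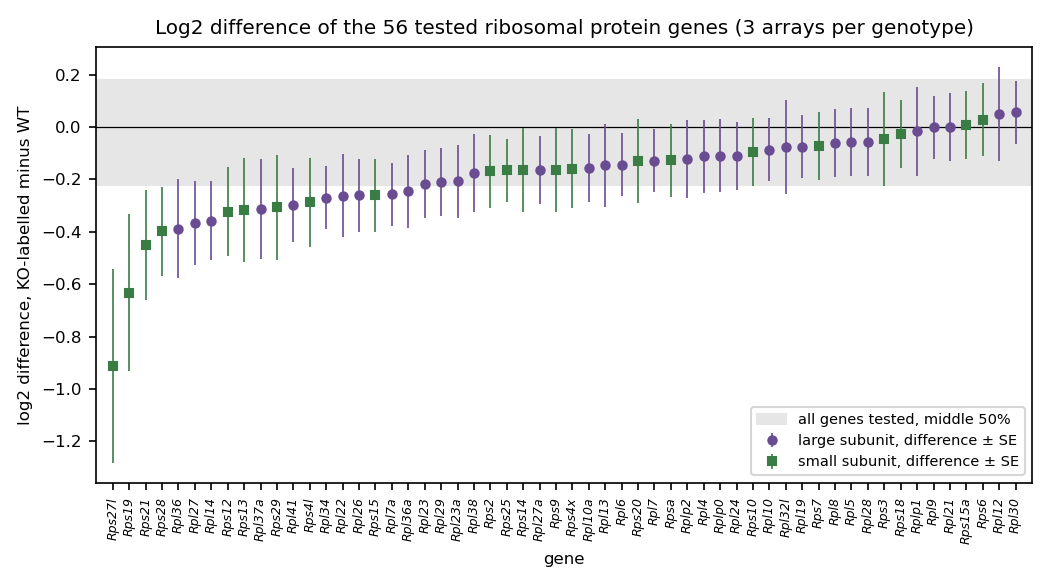
Log2 difference (KO-labelled minus WT, 3 arrays each) of the 56 tested genes with its limma SE, ordered from the most negative, circles for the large and squares for the small subunit. The grey band is the middle 50% of all tested genes, from −0.22 to 0.18; only Rps27l and Rps19 lie below −0.5, and no gene lies above 0.06.

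The subunits were described side by side, and no test compared them. The 34 tested genes of the large subunit had a median of −0.15 and quartiles of −0.25 and −0.07, with 31 below 0 and 12 in which the groups did not overlap. The 22 of the small subunit had a median of −0.16 and quartiles of −0.31 and −0.10, with 20 below 0 and 6 in which the groups did not overlap. In both subunits these were all lower, an order that 10.9% of all tested genes had, and 52.0% of all tested genes were below 0. The genes with the largest differences belonged to the small subunit, whose lowest value was −0.91, against −0.39 for the large subunit. Without WT2 and KO2 the medians were −0.31 for the small and −0.21 for the large subunit. The SE of a member lay between 0.12 and 0.37, with a median of 0.14 (0.19 over all tested genes).

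Rps27l, a paralogue of the small-subunit gene Rps27 that p53 induces in human cells, had the largest difference of the family. Its values were 8.62, 7.22 and 8.21 in KO-labelled cells and 8.65, 9.36 and 8.78 in WT cells. The groups did not overlap, but KO1 and WT1 lay almost at the same level, and the spread came from KO2 and WT2. The difference was −0.91 (SE 0.37, adjusted p = 0.339), and this was the 1 gene past the study's threshold (unadjusted p 0.0443). It was also past it without KO1, but not when KO2, KO3, WT1, WT2 or WT3 was left out. WT2 was its highest array, as for only 4 of the 56.

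Rps19, needed to mature the small subunit and the gene most often mutated in human Diamond-Blackfan anaemia, followed. It read 8.65, 8.36 and 8.62 in KO-labelled cells and 8.97, 8.70 and 9.86 in WT cells (difference −0.63, SE 0.30, adjusted p = 0.395). The groups were narrowly apart, and WT3 was far above the other WT arrays. Rps21, another small-subunit protein, read 10.19, 10.30 and 10.39 in KO-labelled cells and 10.73, 10.36 and 11.13 in WT cells. The groups overlapped because WT2 lay among the KO-labelled arrays, and the difference was −0.45 (SE 0.21, adjusted p = 0.389). Rps28, also a Diamond-Blackfan gene in humans, read 10.79, 11.07 and 10.91 in KO-labelled cells and 11.24, 11.13 and 11.60 in WT cells. All KO-labelled arrays were below all WT arrays, with a difference of −0.40 (SE 0.17, adjusted p = 0.361).

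In the large subunit, Rpl36 had the largest difference. It read 10.84, 10.56 and 10.96 in KO-labelled cells and 11.28, 10.87 and 11.38 in WT cells, with an overlap through WT2 (difference −0.39, SE 0.19, adjusted p = 0.41). Rpl27 read 11.19, 11.26 and 11.25 in KO-labelled cells and 11.50, 11.42 and 11.88 in WT cells. The KO-labelled arrays were close together (SD 0.04) and all below the WT arrays (difference −0.37, SE 0.16, adjusted p = 0.365). Rpl14 read 8.04, 7.77 and 7.93 in KO-labelled cells and 8.32, 8.08 and 8.41 in WT cells, again without overlap (difference −0.36, SE 0.15, adjusted p = 0.357). Rpl34 read 6.46, 6.47 and 6.54 in KO-labelled cells and 6.83, 6.68 and 6.77 in WT cells. Its groups were apart and tight, with SDs of 0.04 and 0.08, and the difference was −0.27 (SE 0.12, adjusted p = 0.387). That row is dim (mean 6.62), and the 3 brightest rows that carry Rpl34 with other symbols had differences of −0.15, −0.15 and −0.14, with overlap. Rpl7a, chosen after its values were seen, was the member of the large subunit with WT2 as its highest array and no overlap, at 10.97, 10.87 and 10.96 in KO-labelled cells and 11.14, 11.24 and 11.18 in WT cells (difference −0.26, adjusted p = 0.40).

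**Figure D3:**
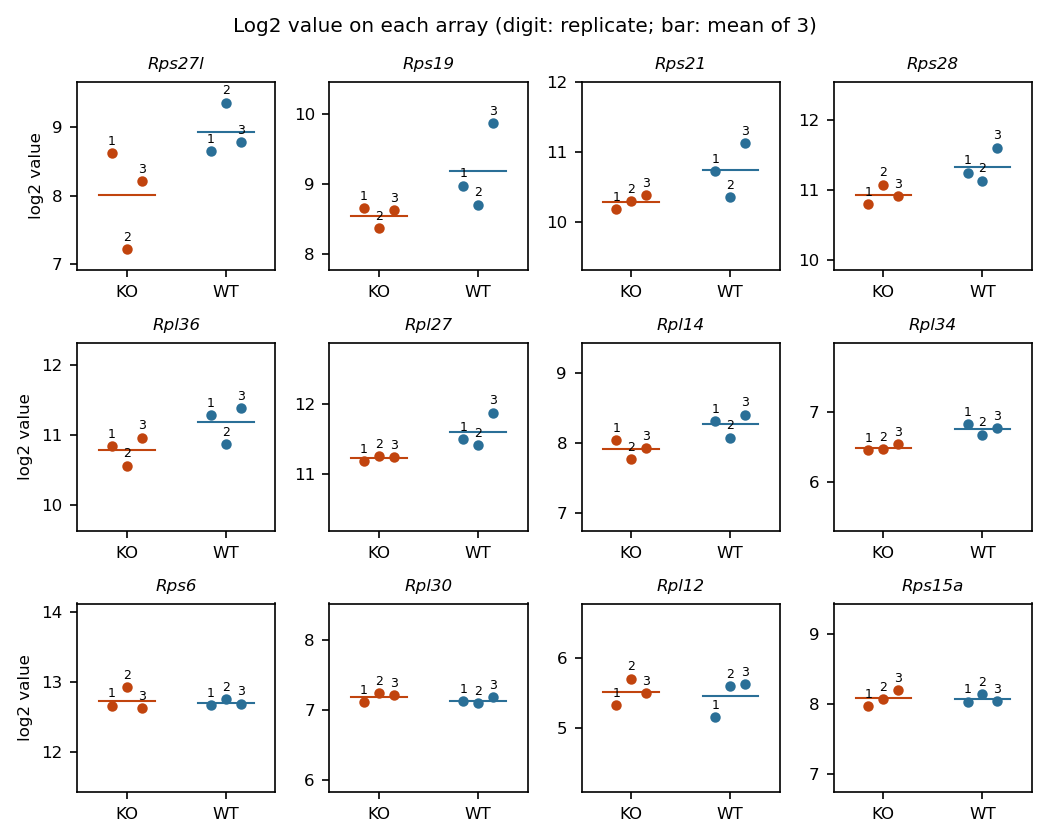
Log2 value of 12 ribosomal protein genes on each array, KO-labelled left and WT right in each panel, with the replicate number above the point and a bar at the mean of 3. The upper 8 genes have KO-labelled means 0.27 to 0.91 below their WT means, and the lower 4 (Rps6, Rpl30, Rpl12 and Rps15a) have means within 0.06 of each other.

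A few genes had differences near 0 on their own rows. Rps6, the ribosomal protein that S6 kinases phosphorylate downstream of mTOR, read 12.66, 12.92 and 12.62 in KO-labelled cells and 12.67, 12.75 and 12.69 in WT cells, a difference of 0.03 (SE 0.14). Rpl30 had a difference of 0.06 (SE 0.12), Rpl12 of 0.05 (SE 0.18) and Rps15a of 0.01 (SE 0.13). The own rows of Rpl12 (mean 5.49) and Rps15a (mean 8.07) are dimmer than the rows that carry their symbol together with others. The 2 shared rows of Rps15a had differences of −0.29 and −0.26, with no overlap, and the brightest of Rpl12 had −0.17 (SE 0.16), while the brightest of Rpl30 had 0.01 (SE 0.13). The sign of Rpl30, Rpl12, Rps6 and Rps15a was negative when the arrays were centred on their medians, at −0.01, −0.02, −0.04 and −0.06, so none of these 4 has a settled direction. Rpl9 and Rpl21 had differences of 0.00. Of the P stalk, which recruits the elongation factors, Rplp0 had a difference of −0.11 (SE 0.14), Rplp1 of −0.02 (SE 0.17) and Rplp2 of −0.12 (SE 0.15), and the groups overlapped in all 3. Rpl5, which carries 5S RNA into the large subunit and with Rpl11 can bind Mdm2, read 12.36, 12.46 and 12.27 in KO-labelled cells and 12.44, 12.35 and 12.48 in WT cells, a difference of −0.06 (SE 0.13).

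Rpl22, which developing mouse T cells need, read 7.44, 7.11 and 7.35 in KO-labelled cells and 7.72, 7.37 and 7.61 in WT cells. WT2 lay between KO3 and KO1, and the difference was −0.26 (SE 0.16, adjusted p = 0.491). Rps4x, on the X chromosome, read 12.02, 12.20 and 12.00 in KO-labelled cells and 12.22, 12.05 and 12.42 in WT cells (difference −0.16, SE 0.15). WT1, the array that read high for Xist, was not the highest WT array for Rps4x. Of the human Diamond-Blackfan genes 9 were tested, with a median of −0.26 and 8 below 0, and of the proteins lining the peptide exit tunnel 5 were tested, with a median of −0.21 and all 5 below 0.

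The paralogues with tissue-restricted use were near the floor of the array. Rpl3l, the heart and skeletal muscle form of Rpl3, lay between 3.68 and 3.99 over all 6 arrays. Rpl10l and Rpl39l, forms used in male germ cells, lay between 3.15 and 3.86 and between 3.63 and 3.81. Rps4l, which RefSeq lists as a transcribed pseudogene, read 3.95, 4.33 and 4.14 in KO-labelled cells and 4.31, 4.31 and 4.66 in WT cells, so that KO1 and KO3 were under 4.26. Rpl32l read 9.54, 10.06 and 9.54 in KO-labelled cells and 9.77, 9.74 and 9.86 in WT cells, a difference of −0.08 (SE 0.18), with KO2 as its highest array. Without the copies and paralogues, the median of the 53 remaining tested genes was −0.16.

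The size of the difference varied with the brightness of the row. The 18 genes with a mean of 12 or more had a median difference of −0.10, with 16 below 0. The 24 between 10 and 12 had a median of −0.16, with all 24 below 0. The 14 under 10 had a median of −0.26, with 11 below 0. Over the 53 genes without copies, level and difference had a Pearson r of 0.15 and a Spearman rho of 0.42, which is a description across genes that share the same arrays. Rows of 1 gene with no other symbol were also compared. The array holds many rows per ribosomal protein gene, 215 for the 59 genes and up to 14 for Rps12. Of the 38 genes with rows of different values, the dimmest row had the more negative difference in 31. With shared rows counted, some genes with a single row of their own ran the other way, as a brighter shared row was the more negative. Among them were Rps15a, Rpl12, Rpl26, Rps19 and Rpl37a, while Rpl34 did not run the other way. Rpl29 was mixed, with −0.21 on its own row at a mean of 9.29. Its brightest shared row had −0.12 at 11.73, and another brighter shared row had −0.23 at 10.93. Rpl26 had −0.26 on its own row with a mean of 5.43 and −0.48 on a shared row with a mean of 10.63. Rps21 had −0.72 on the row with a mean of 8.09 and −0.45 on that with a mean of 10.52. Rpl7a had −0.58 on a row with a mean of 8.87 and −0.26 on one with a mean of 11.06, and Rpl23 had −0.44 at 8.56 and −0.22 at 12.15. Only in Rps6 and Rpl21 did rows differ in sign, with all differences between −0.08 and 0.03. Whether the bright rows were near the top of the array's range was not tested.

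**Figure D4:**
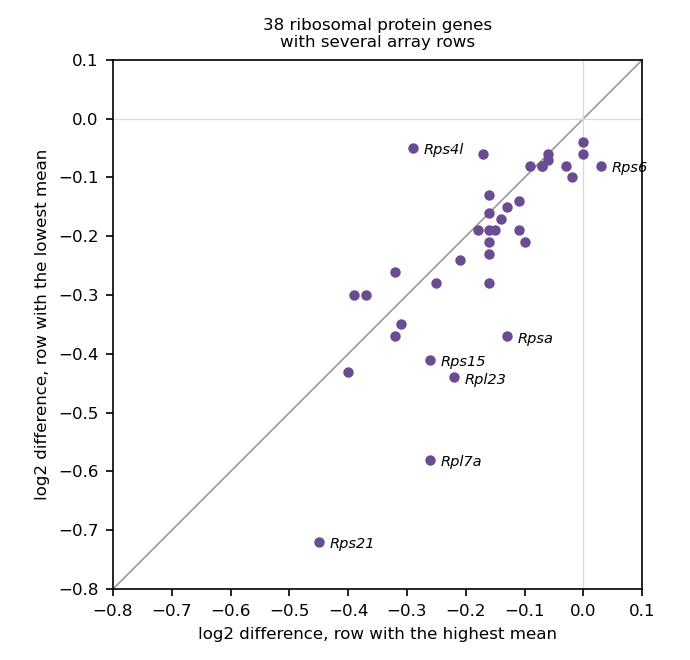
Log2 difference (KO-labelled minus WT) of the brightest row, used throughout, on the horizontal axis and of the dimmest row on the vertical axis, for the 38 ribosomal protein genes with rows of different values; the line marks equal differences. For 31 genes the dimmest row had the more negative difference, with Rps21, Rpl7a, Rpl23 and Rpsa well below the line.

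Rows paired with a ribosomal protein symbol and other symbols were kept out of the family and gave a similar picture. There were 234 such bright rows, with a median difference of −0.16 and 216 below 0. The KO-labelled arrays lay below all WT arrays in 106 (8.80% of all bright rows) and above them in 1 (11.8%). These rows are not separate genes, since 6 symbols held 130 of them, with 35 for Rpl29. Taking the brightest shared row of each of 34 symbols or symbol pairs, the median was −0.16, 30 were below 0, and the KO-labelled arrays lay below all WT arrays in 15 and above them in 1. All 19971 bright rows were fitted together. Of the 234 shared rows, 3 passed the study's threshold as lower (3.10% of all bright rows) and 1 as higher (5.44%). None of the 234 passed an adjusted p of 0.05. The 3 lower rows all carried Rps19 with its pseudogene Rps19-ps3. The brightest of them read 9.11, 8.92 and 9.20 in KO-labelled cells and 9.74, 9.58 and 10.41 in WT cells (difference −0.83, SE 0.24, unadjusted p 0.0114). The higher row carried Rps13 with Snord14a, a small nucleolar RNA, and read 6.65, 7.81 and 6.96 in KO-labelled cells and 6.50, 5.85 and 6.53 in WT cells (difference 0.84, SE 0.34). The row of Rps13 alone had a difference of −0.32 (SE 0.20).

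For 14 more ribosomal protein genes only such shared rows exist, and 12 of the 14 were below 0 on their brightest row, with a median of −0.13. Rpl32, Rpl37 and Rps27 also have shared rows only. They are not among the 14, since their rows carry another ribosomal protein symbol as well. The genes named next were singled out after their values were seen. Rpl35, listed with Itgam, read 10.52, 10.28 and 10.76 in KO-labelled cells and 11.04, 10.93 and 11.24 in WT cells, with no overlap (difference −0.55, SE 0.18). Rpl35a, listed with Ino80, read 10.80, 10.90 and 10.97 in KO-labelled cells and 11.22, 11.12 and 11.61 in WT cells (difference −0.43, SE 0.18). Rpl11, the partner of Rpl5, had a difference of 0.06 (SE 0.15) and Rpl17 of 0.02 (SE 0.14). In these rows the share of signal from each symbol cannot be told apart.

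The neighbouring gene groups of translation were set beside the family. The 77 mitochondrial ribosomal proteins, which build the separate ribosome of the mitochondrion, had a median difference of −0.37, with 75 below 0. The study's threshold called 6 of them as lower (4.33% of all tested genes) and none as higher, and the groups did not overlap in 18, all lower (10.9%). Mrps16 (difference −0.68, SE 0.15, adjusted p = 0.134) and Mrpl34 (−0.72, SE 0.18, adjusted p = 0.156) had the smallest p. The 48 ribosome biogenesis genes had a median of −0.30, with 3 past the study's threshold as lower, beside 4.33% of all tested genes. Among them was Nob1, the nuclease of the last cut of 18S RNA (−0.60, SE 0.13, adjusted p = 0.119). Rrp12, of pre-ribosome export, had a difference of −0.54 (SE 0.16, adjusted p = 0.23), under the fold needed. The 41 initiation factors had a median of −0.19, with Eif3i at −0.66 and Eif4a2 at 0.60, each past the study's threshold (adjusted p = 0.252 and 0.27).

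**Figure D5:**
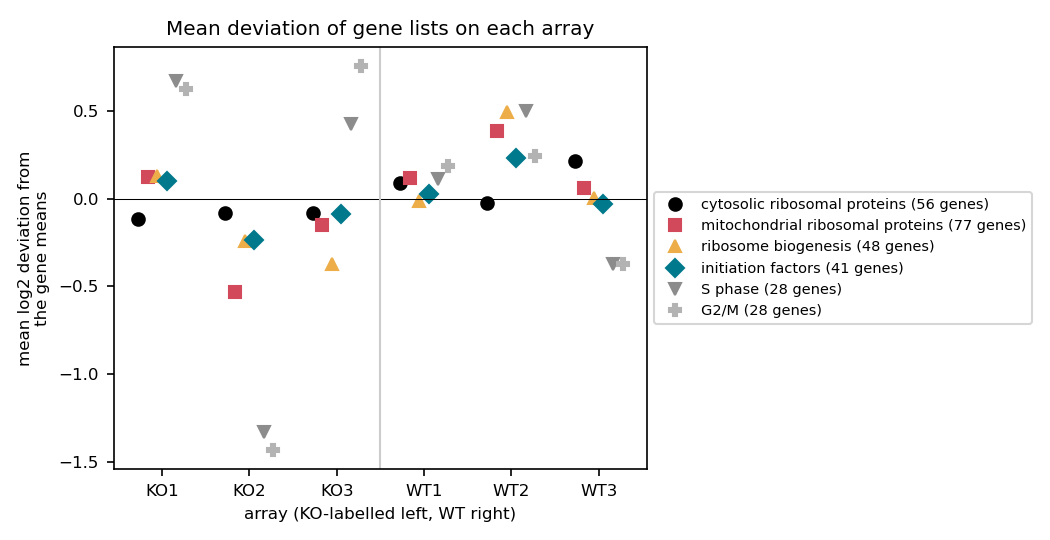
Mean log2 deviation of each gene list from its genes' own means on each array, KO-labelled left and WT right. Cytosolic ribosomal proteins (black circles) stayed between −0.116 and 0.213, mitochondrial ribosomal proteins between −0.534 and 0.387, and S phase and G2/M genes stood at −1.33 and −1.43 on KO2.

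The cytosolic and mitochondrial families did not follow the same arrays. Mitochondrial ribosomal proteins had mean deviations of 0.121, −0.534 and −0.151 on KO1 to KO3 and 0.118, 0.387 and 0.0595 on WT1 to WT3, lowest on KO2 and highest on WT2. Ribosome biogenesis genes had 0.131, −0.241 and −0.371 on KO1 to KO3 and −0.0138, 0.493 and 0.00189 on WT1 to WT3, also highest on WT2. The cytosolic family was highest on WT3 and differed little among KO1 to KO3. The difference between these lists was not tested.

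Among mRNAs that also carry a TOP motif but encode no ribosomal protein of the rule, 19 were tested, with a median of −0.03 and 10 below 0. Eef1b2, an exchange factor of elongation, had a difference of −0.41 (SE 0.18, adjusted p = 0.364), while Eif4a2 stood at 0.60. The 11 tested genes of a list headed elongation and release factors had a median of −0.06. Of that list, which is wider than those factors alone, Eef1e1 stood at −0.80 (SE 0.34, adjusted p = 0.355). Of a short list of genes with related names or roles outside the rule, Fau and Rps3a1, which encode ribosomal proteins, had differences of −0.11 (SE 0.18) and −0.05 (SE 0.47). Rsl1d1, Rsl24d1 and Rpl7l1, assembly or nucleolar factors, had −0.34, −0.27 and −0.24, and the groups overlapped in all 5. Of the 19 tested regulators of ribosomal protein synthesis, 3 passed the study's threshold as lower (4.33% of all tested genes) and 1 as higher (3.97%). Myc, which drives ribosome production, read 9.61, 8.90 and 9.17 in KO-labelled cells and 10.15, 10.11 and 10.23 in WT cells, with no overlap (difference −0.93, SE 0.20, adjusted p = 0.117). Ddit4, an inhibitor of mTOR complex 1, read 7.20, 6.66 and 7.29 in KO-labelled cells and 7.93, 8.16 and 7.84 in WT cells (difference −0.92, SE 0.20, adjusted p = 0.126). Neither passed the adjusted threshold. The 10 housekeeping genes tested had a median of 0.02 and quartiles of −0.28 and 0.04. Their mean deviation ran from −0.34 on KO2 to 0.237 on KO1, so they were not level across the arrays.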

How the data were processed

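Labelled cDNA of 3 Runx3-/- and 3 WT samples was hybridised to 1 array each. Going by the methods and the labels, scanner files were processed by the authors in Partek Genomics Suite, with GC-corrected robust multichip average (RMA), and the deposited values are log2 signals, 1 column per array. No source used here gives a version of Partek. RMA gives all arrays a similar distribution, so a change in total RNA per cell is not seen, and small differences of dim rows are compressed. The number of arrays limits the precision.

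Of 35399 rows, 21789 had exactly 1 symbol, for 19938 genes. The row with the highest mean stood for a gene, and 10021 genes with a highest value of at least 4.26, the median of the table, were tested with limma 3.58.1 (R 4.3.3; lmFit and eBayes, two-sided, no covariate), with Benjamini-Hochberg adjustment over all of them. Differences are KO-labelled minus WT, and SEs are moderated. The methods call the replicates biological repeats and do not say whether each is 1 mouse, so p-values measure the spread between these samples. Same-numbered arrays did not deviate together (r of −0.131, −0.369 and −0.133), so the numbers were not used to pair them. The family, the gene lists, the tests and the rules were chosen with earlier results of these data known.

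Named are genes past a threshold, the 6 largest falls and the rises, the 5 smallest p, the 3 brightest and 3 dimmest rows, the P stalk, Rpl5, paralogues, genes with rows of both signs, Rps4x, Rps6, Rpl22, Runx3, and up to 2 genes with the smallest p of each translation list. Others were chosen after their values were seen. The fit was tested on simulated data. A fit of all bright rows, used for rows with several symbols, was added after seeing the data. Figures were drawn with matplotlib 3.10.9.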

Additional observations from a re-analysis of the deposited data

How the results depend on the processing

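No gene of the family passed an adjusted p of 0.05 in limma under any of 16 alternatives, and the family's median stayed below 0 in all of them. In these, 0 to 16 genes of the family had an unadjusted p under 0.05, against 1 in the main fit. Of all tested genes, 7.14% were lower and 6.96% higher at that p in the main fit. Their shares under the alternatives are not given here, so the range cannot be set against a background. The 16 came with array weights, where many more of all tested genes passed the adjusted threshold, 547 in place of 63. With the arrays that stand apart, WT2 and KO2, both left out, the median was −0.24 and that of the small subunit −0.31. The groups then did not overlap (lower) in 50 genes, beside 21.9% of all tested genes. Leaving out 1 array gave medians of −0.23 to −0.11 for the family and −0.25 to −0.11 for the small subunit. The groups then did not overlap (lower) in 18 to 38 genes, beside 13.7% to 21.9% of all tested genes. They did not overlap (higher) in 0 to 1 genes. Median centring gave 38 genes with lower groups that did not overlap, beside 13.3% of all tested genes. All 56 were then below 0, but the median of all tested genes was −0.09 and 62.2% of them were below 0. Under quantile normalization the family median minus that of all tested genes was −0.08, in place of −0.15 in the main fit.

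The study's threshold called 1 gene of the family as lower. Of all tested genes it called 434 as lower in the main fit and 267 to 744 under the alternatives. Of the family it called 0 with no filter on dim rows, with the replicate block, with the unmoderated linear model and with array weights. It called 2 with median centring (Rps19 and Rps27l), with the row of the lowest mean (Rps21 and Rps27l) and without WT2 and KO2 (Rps19 and Rps21), and 0 to 2 without 1 array. With the replicate number as a block, 1 of all tested genes passed an adjusted p of 0.05 in place of 63. No KO-labelled array correlated best with the WT array of its own number. With array weights 547 did, and the smallest adjusted p of the family was 0.0836.

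Of 351 values of 22 named genes, 318 kept their sign, and none crossed the adjusted threshold. The 33 others belonged to 8 genes with differences of 0.08 or less. Under quantile normalization Rpl12, Rps6 and Rpl21 were at −0.05, −0.02 and −0.03. Under median centring Rpl30, Rpl12, Rps6, Rps15a and Rpl21 were at −0.01, −0.02, −0.04, −0.06 and −0.07. Rps6 and Rpl21 were at −0.04 and −0.02 with the mean of a gene's rows, −0.08 and −0.04 with the row of the lowest mean, −0.03 and −0.02 with array weights, and −0.04 and −0.02 without WT2 and KO2. Leaving out 1 array gave −0.10 to 0.14 for Rpl12, −0.06 to 0.08 for Rps6, −0.05 to 0.06 for Rps15a, −0.02 to 0.02 for Rpl9, −0.05 to 0.03 for Rpl21, −0.15 to 0.09 for Rplp1 and −0.25 to 0.01 for Rpl32l. The cause of these changes was not tested.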
